A study of Mus musculus with 11 samples.

Results

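The genes described here encode the protein components of the cytosolic ribosome. They were chosen by symbol, as rows of the count table named Rpl or Rps with a number (with or without a short suffix such as a, x or l) together with Rpsa, Rplp0, Rplp1 and Rplp2, without rows marked -ps as pseudogenes and without the Rps6k kinases. Of 87 such symbols, 85 reached a mean of at least 1 count per 1000000 counts of the library (CPM) over the 11 libraries. These 85 members are 49 genes named for the large ribosomal subunit and 36 named for the small one, out of 31168 named rows. The symbols did not match the annotation in every case: GENCODE vM21 annotates 79 of the members as protein coding (47 large, 32 small) and 6 as processed pseudogenes (Rpl6l, Rpl32l, Rps3a2, Rps3a3, Rps4l and Rps12l1). Those 6 are called processed copies below.

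RNA came from 2 cm of distal ileum, the end of the small intestine, in mice of 2 groups that had all received dextran sodium sulfate, a polysaccharide that injures the intestinal lining. The 5 dIEC mice were H2-Ab1 fl/fl; Villin:Cre+, and the 6 WT mice were H2-Ab1 fl/fl; Villin:Cre-, so the mice called WT also carried floxed alleles of H2-Ab1, a gene of an MHC class II chain. Villin:Cre is a transgene that makes Cre recombinase in intestinal epithelial cells, and the other cells of the tissue keep the floxed alleles uncut. In the series' design text both groups appear as Villin:Cre-, so the genotype labels of the single samples were followed. No age or sex is stated in the labels, and no mice without dextran sodium sulfate are described here.

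The cytosolic ribosome is built in the nucleolus from ribosomal RNA and ribosomal proteins, each protein encoded by its own gene and, with the exception of the acidic stalk proteins, present once per ribosome. The small subunit decodes messenger RNA and the large subunit joins the amino acids. Messenger RNAs of ribosomal proteins are among the most abundant of a cell, and most begin with a terminal oligopyrimidine tract, a C followed by a run of C and T, through which mTORC1 signalling controls how fast they are translated. In the intestine, dividing crypt cells are known for high ribosome production. Mammalian genomes also hold many processed pseudogenes of ribosomal proteins, intronless DNA copies of their messenger RNAs.

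The start sites of 5 members are shown because the tract that marks the class can be read in them. Each line gives 30 bases on the gene's own strand, 15 before the RefSeq start and 15 from it, in GRCm38.p6, and the capitals mark the tract from the start base on.
Rps6, chr4:86857353-86857382, minus strand: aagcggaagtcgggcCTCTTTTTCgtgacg
Rpl15, chr14:18270972-18271001, minus strand: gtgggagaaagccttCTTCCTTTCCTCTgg
Rps10, chr17:27635230-27635259, minus strand: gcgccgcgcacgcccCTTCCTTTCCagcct
Rps18, chr17:33955651-33955680, minus strand: tacgtcacttccgctCTCTCTTCCacagga
Rpl38, chr11:114668565-114668594, plus strand: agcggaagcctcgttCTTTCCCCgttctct
The RefSeq table holds promoters of 60 of the 85 members and of 27025 genes in all. A C at the start base followed by at least 4 bases that are each C or T, read on the gene's strand only, was present in 14 of the 60 members (23.3%), against 3.01% of all genes in the table. With the tract allowed to begin within 10 bases of the start, it was found in 37 members (61.7%), against 34.4% of all genes. No match says only that these letters are not at the annotated start. The 13 tested members with a tract at the start had a median log2 fold change, dIEC against WT, of -0.0068, and the 46 tested members without one had a median of -0.042.

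Libraries held 6603965 to 9681698 counts, and 1510296 to 3215574 of them fell on protein-coding genes, Lars2 left out. Rows of ribosomal RNA, with the row Gm42418 counted among them, took 40.5 ± 8.50% of the counts in dIEC mice and 34.6 ± 6.91% in WT mice (SD, n = 5 and 6). All pairs of libraries within a group differed by more than counting noise (chi-square of 9.24 to 62.4 for each degree of freedom). That chi-square took in all rows with at least 10 counts in the pair, also those of ribosomal RNA, Gm42418 and Lars2. It therefore does not separate the spread of those rows from that of other genes. All CPM values below are, except at the threshold of the rule, counts per 1000000 of the library total multiplied by its TMM factor, a scaling that sets the bulk of genes level across libraries. H2-Ab1 itself had 39.0, 23.0, 17.5, 33.1 and 16.8 CPM in dIEC mice, against 47.1 to 111 CPM with a median of 87.5 in WT mice, with no overlap between the groups (log2 fold change -1.68 ± 0.28, adjusted p = 0.361 with edgeR's quasi-likelihood test; DESeq2 adjusted p = 1.4e-05). At an unadjusted p under 0.05, which 4.87% of all genes passed as higher and 5.79% as lower, and with no marker called after adjustment, 7 of 8 fibroblast markers were lower in dIEC mice (summed CPM 277 to 470.5 in dIEC mice and 286 to 922 in WT mice). At that p, 3 of 10 enterocyte markers (2929 to 7973 CPM in dIEC mice and 2055 to 8561 CPM in WT mice) and 4 of 7 T cell markers (18.9 to 32.3 CPM in dIEC mice and 12.3 to 20.2 CPM in WT mice) were higher. Of 8 smooth muscle markers 0 were higher and 1 was lower, and all 8 had a log2 fold change below 0 (1286 to 3171 CPM in dIEC mice and 2258 to 4634 CPM in WT mice). Of 10 markers of dividing crypt cells 0 passed it in either direction (90.8 to 298 CPM in dIEC mice and 229.9 to 299 CPM in WT mice). Of these 10 crypt markers, however, 0 had a log2 fold change above 0, and their median was -0.33. The epithelial markers were present in every library, at a summed 2274 to 3022 CPM in dIEC mice and 1900 to 3243 CPM in WT mice. All 9 had a log2 fold change above 0 (median 0.24), and 1 was higher at an unadjusted p under 0.05. All 10 enterocyte markers (median 0.78) and 6 of 7 T cell markers also lay above 0, and 0 of 8 fibroblast markers did. The part of this cell makeup and of the ribosomal RNA share in the values of the ribosomal protein genes was not tested, and in whole tissue fewer cells of a type and less RNA per cell cannot be told apart.

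With TMM scaling, the summed level of the ribosomal protein genes was close to equal in the 2 genotypes. The 49 large subunit members summed to 1365, 1239, 1228, 1402 and 1239 CPM in dIEC replicates 1, 3, 5, 6 and 11, against 1192 to 1444 CPM with a median of 1309 in WT mice. The 36 small subunit members summed to 1401, 1303, 1261, 1425 and 1261 CPM in dIEC replicates 1, 3, 5, 6 and 11, against 1216 to 1503 CPM with a median of 1344 in WT mice. For both subunits the highest and the lowest WT library enclosed all 5 dIEC libraries. The means were 1295 ± 82.2 CPM in dIEC mice and 1315 ± 111 CPM in WT mice for the large subunit, and 1330.1 ± 78.1 CPM in dIEC mice and 1354 ± 115 CPM in WT mice for the small subunit (SD, n = 5 and 6).

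**Figure D1:**
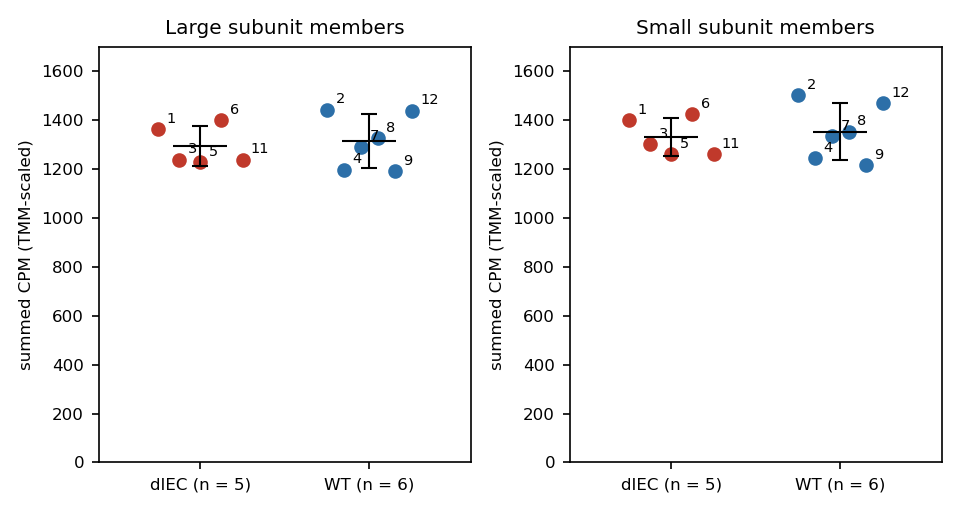
Summed CPM of the 49 large (left) and 36 small (right) subunit members in each library, dIEC in red and WT in blue, numbered by replicate. Horizontal bars with whiskers are the mean ± SD, and the 5 dIEC libraries lie within the span of the 6 WT libraries in both panels.

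The 2 subunits kept a near-constant proportion. The ratio of the large to the small subunit sum was 0.973 ± 0.0131 in dIEC mice and 0.972 ± 0.00943 in WT mice (SD), and it stayed between 0.951 and 0.984 over all 11 libraries, while the summed level of all members differed 1.22-fold between the highest library, WT replicate 2, and the lowest, WT replicate 9. The 79 protein-coding members alone gave 1224 ± 77.0 CPM in dIEC mice and 1247 ± 102 CPM in WT mice for the large subunit, and 1078 ± 68.8 CPM in dIEC mice and 1098 ± 90.5 CPM in WT mice for the small one. The level depended on the scaling: per 1000000 counts of the unscaled library total, the members summed to 2434 ± 396 in dIEC mice and 2876 ± 356 in WT mice. Under that scaling the median log2 fold change of all genes tested was -0.22, and only 1 of the 84 tested members lay above 0. As a share of protein-coding counts, Lars2 left out, the 79 protein-coding members took 0.723 ± 0.0690% in dIEC mice and 0.796 ± 0.0974% in WT mice. These shares overlapped, at 0.663 to 0.842% in dIEC mice and 0.680 to 0.928% in WT mice. All members together held 0.186 to 0.295% of all counts in dIEC libraries and 0.230 to 0.330% in WT libraries.

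No member passed the test between genotypes. Of the 85 members, 84 passed the filter on low counts and were tested with edgeR's quasi-likelihood test and Benjamini-Hochberg adjustment over all 15911 genes. At an adjusted p under 0.05, 0 of the 84 were called higher and 0 lower, where the share of all genes called was 0.00628% higher (1 gene) and 0.0% lower. The lowest adjusted p of a member was 0.444. At an unadjusted p under 0.05, 0 members were higher, against 4.87% of all genes, and 1 was lower (Rpl3), against 5.79% of all genes. That last count was 0 without dIEC replicate 3, 5 or 11 or WT replicate 2 or 12. It was 2 if WT replicate 4 or 9 was left out, where 3.58% and 5.94% of all genes were lower. It was 3 if dIEC replicate 1, dIEC replicate 6 or WT replicate 8 was left out, where 4.63%, 7.05% and 9.82% of all genes were lower. DESeq2 likewise called 0 members, against 0.0899% of genes called higher and 0.02% called lower, and its lowest adjusted p was 0.461 among the 72 members it gave one. At an unadjusted p under 0.05 DESeq2 had 0 members higher, against 2.96% of genes, and 1 lower, against 3.24%. In none of the 84 members did the CPM values of the groups separate without overlap, as they did in 0.572% of all genes tested.

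The intervals were narrow around 0. The median log2 fold change was -0.0068 over 49 large subunit members and -0.014 over 35 small subunit members, beside -0.0071 over all genes tested. The large subunit spanned -0.28 to 0.27 with 22 of 49 members above 0, and in the small subunit 15 of 35 lay above 0, with a lowest value of -0.22. All 84 members had a 95% interval within a log2 fold change of -1 to 1, a change of 2-fold, as did 86.4% of all genes. For 69 members the interval lay within -0.5 to 0.5, a change of 1.41-fold, as did 41.6% of all genes. The widest bounds were -0.74 (Rpl36a) and 0.62 (Rps29), both low-count members. In 5907 other genes with a mean CPM between the lower and upper quartile of the members (8.66 and 42.4 CPM), the median size of the log2 fold change was 0.126. It was 0.0815 over all 84 tested members, which include those below and above that CPM range, so the 2 values are not matched for level. With TMM scaling, each member's interval, taken alone, left out a change of 2-fold or more of its row in these libraries. For 69 members it left out a change of 1.41-fold or more. The intervals were not widened to hold for all 84 members together. They describe the counts of a row, which may include reads from genes that share its sequence. The intervals say nothing of smaller shifts within them.

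**Figure D2:**
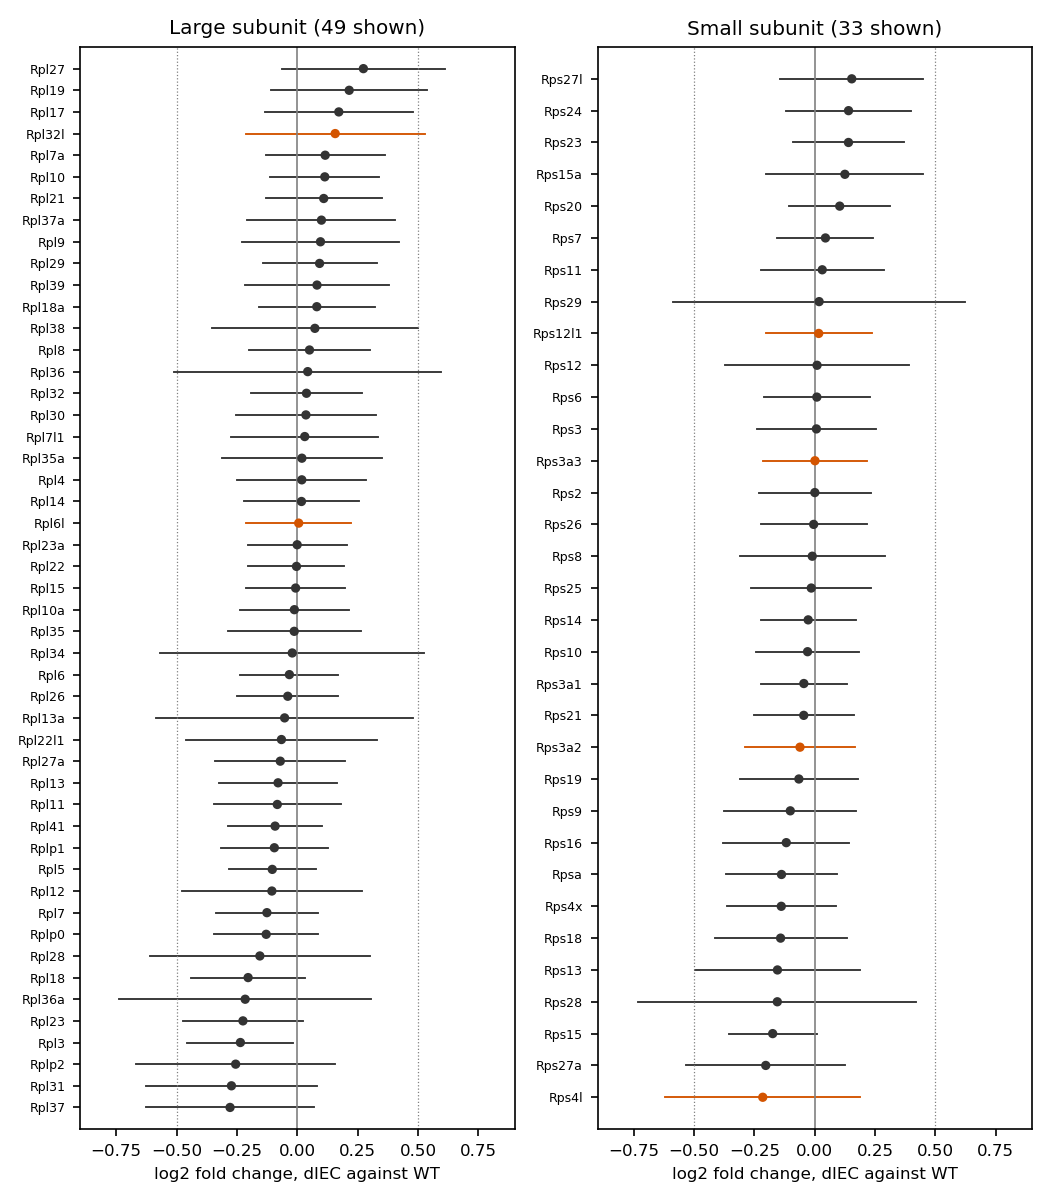
Log2 fold change, dIEC against WT, of 82 of the 84 tested members (points) with 95% intervals (lines), large subunit on the left and small subunit on the right, ordered by value. Orange marks processed copies, dotted lines mark -0.5 and 0.5, and every interval lies within -1 to 1.

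Among large subunit members, the acidic stalk proteins recruit translation factors to the ribosome. Rplp0, the base of the stalk, had 86.6, 87.4, 85.2, 89.7 and 83.2 CPM in dIEC mice, against 85.1 to 112 CPM with a median of 90.5 in WT mice (log2 fold change -0.13 ± 0.10, adjusted p = 0.628). Its dIEC values sat within the WT range except dIEC replicate 11, the lowest of all. Rplp1 averaged 68.7 ± 5.31 CPM in dIEC mice and 73.4 ± 8.63 CPM in WT mice (log2 fold change -0.095 ± 0.10, adjusted p = 0.748). Its partner Rplp2 averaged 3.26 ± 0.852 CPM in dIEC mice and 3.87 ± 0.560 CPM in WT mice (log2 fold change -0.26 ± 0.19, adjusted p = 0.617). Rplp1 and Rplp2 pair in the ribosome, and per length their rows stood far apart, at 143 and 3.72 CPM per kb of principal transcript over all libraries.

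Rpl5 and Rpl11 bind 5S ribosomal RNA and, when ribosome assembly is disturbed, the p53 regulator Mdm2. Rpl5 had 37.8, 33.3, 33.7, 41.1 and 35.3 CPM in dIEC mice, against 37.1 to 40.2 CPM with a median of 39.4 in WT mice (log2 fold change -0.10 ± 0.085, adjusted p = 0.645). The groups overlapped, with the dIEC values both the highest and the lowest. Rpl11 averaged 13.4 ± 1.95 CPM in dIEC mice and 14.3 ± 1.79 CPM in WT mice (log2 fold change -0.083 ± 0.12, adjusted p = 0.828). Rpl10, which joins the large subunit late in the cytoplasm, averaged 33.0 ± 2.74 CPM in dIEC mice and 30.5 ± 3.92 CPM in WT mice (log2 fold change 0.11 ± 0.11, adjusted p = 0.692). Rpl8, a protein close to the peptidyl transferase centre, averaged 94.8 ± 12.1 CPM in dIEC mice and 91.5 ± 10.8 CPM in WT mice (log2 fold change 0.051 ± 0.12, adjusted p = 0.900). Rpl41, a very short basic peptide, averaged 78.2 ± 4.68 CPM in dIEC mice and 83.2 ± 5.52 CPM in WT mice (log2 fold change -0.092 ± 0.091, adjusted p = 0.716). None of these 5 passed the test.

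Among small subunit members, Rps6 is the substrate of the S6 kinases downstream of mTORC1, and its start is printed above. It had 67.2, 58.1, 58.2, 68.2 and 55.7 CPM in dIEC mice, against 51.4 to 69.7 CPM with a median of 60.1 in WT mice (log2 fold change 0.0086 ± 0.10, adjusted p = 0.984). Every dIEC value lay inside the WT range. Rps3, at the entry of the messenger RNA channel, was the small subunit member with the highest CPM and had 139.9, 119, 113, 126 and 115 CPM in dIEC mice, against 105 to 144 CPM with a median of 121 in WT mice (log2 fold change 0.0069 ± 0.12, adjusted p = 0.988). Rpsa, also known as the laminin receptor, averaged 49.7 ± 5.40 CPM in dIEC mice and 54.7 ± 6.90 CPM in WT mice (log2 fold change -0.14 ± 0.11, adjusted p = 0.629). Rps19, whose human counterpart is mutated in Diamond-Blackfan anaemia, averaged 24.9 ± 3.28 CPM in dIEC mice and 26.03 ± 3.05 CPM in WT mice (log2 fold change -0.066 ± 0.11, adjusted p = 0.860). Rps9, which acts in decoding accuracy, averaged 92.5 ± 11.5 CPM in dIEC mice and 99.1 ± 15.3 CPM in WT mice (log2 fold change -0.10 ± 0.13, adjusted p = 0.785). These 5 members gave overlapping groups, with log2 fold changes between -0.14 and 0.01.

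The members with the lowest p in each direction are described by values, since none passed the threshold. Rpl3, a protein near the peptidyl transferase centre, had 50.2, 42.7, 39.0, 49.6 and 40.0 CPM in dIEC mice, against 46.5 to 59.7 CPM with a median of 50.97 in WT mice. In this gene 3 of the dIEC libraries lay below every WT library, and the other two lay inside the WT range (log2 fold change -0.24 ± 0.10, 95% interval -0.46 to -0.02, unadjusted p = 0.0372, adjusted p = 0.444). Its row shared 85.6% of its 50-base windows with other genes. Rpl23 had 7.19, 5.92, 7.71, 7.09 and 7.83 CPM in dIEC mice, against 7.27 to 8.73 CPM with a median of 8.57 in WT mice (log2 fold change -0.23 ± 0.12, adjusted p = 0.493). Rpl18 averaged 12.3 ± 1.53 CPM in dIEC mice and 14.2 ± 1.26 CPM in WT mice (log2 fold change -0.20 ± 0.11, adjusted p = 0.501). In the other direction, Rpl27 had 5.90, 5.81, 6.49, 7.25 and 5.22 CPM in dIEC mice, against 3.31 to 5.81 CPM with a median of 5.36 in WT mice (log2 fold change 0.27 ± 0.16, adjusted p = 0.527), where WT replicate 8 stood below all other libraries. Rpl19 averaged 8.74 ± 1.30 CPM in dIEC mice and 7.52 ± 1.38 CPM in WT mice (log2 fold change 0.22 ± 0.15, adjusted p = 0.591), and Rpl17, which lines the exit tunnel, averaged 19.0 ± 3.85 CPM in dIEC mice and 16.9 ± 2.62 CPM in WT mice (log2 fold change 0.17 ± 0.14, adjusted p = 0.654).

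In the small subunit, Rps15 had 29.8, 26.4, 25.6, 27.1 and 26.8 CPM in dIEC mice, against 27.9 to 32.6 CPM with a median of 31.2 in WT mice (log2 fold change -0.17 ± 0.086, adjusted p = 0.477). Of the dIEC libraries, 4 lay below every WT library, and dIEC replicate 1 lay inside the WT range. Rps27a, made as a fusion of ubiquitin with a ribosomal protein, had 9.35, 10.1, 9.33, 11.3 and 7.56 CPM in dIEC mice, against 7.14 to 13.1 CPM with a median of 11.5 in WT mice (log2 fold change -0.20 ± 0.15, adjusted p = 0.620). Rps4x, an X-linked gene, averaged 37.7 ± 5.49 CPM in dIEC mice and 41.5 ± 3.32 CPM in WT mice (log2 fold change -0.14 ± 0.11, adjusted p = 0.620). On the side of higher values, Rps23, a protein of the decoding centre, averaged 16.9 ± 1.97 CPM in dIEC mice and 15.4 ± 1.501 CPM in WT mice (log2 fold change 0.14 ± 0.11, adjusted p = 0.624). Rps24 averaged 32.4 ± 5.15 CPM in dIEC mice and 29.4 ± 3.68 CPM in WT mice (log2 fold change 0.14 ± 0.12, adjusted p = 0.669). In each of these small subunit members the 2 genotypes overlapped.

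**Figure D3:**
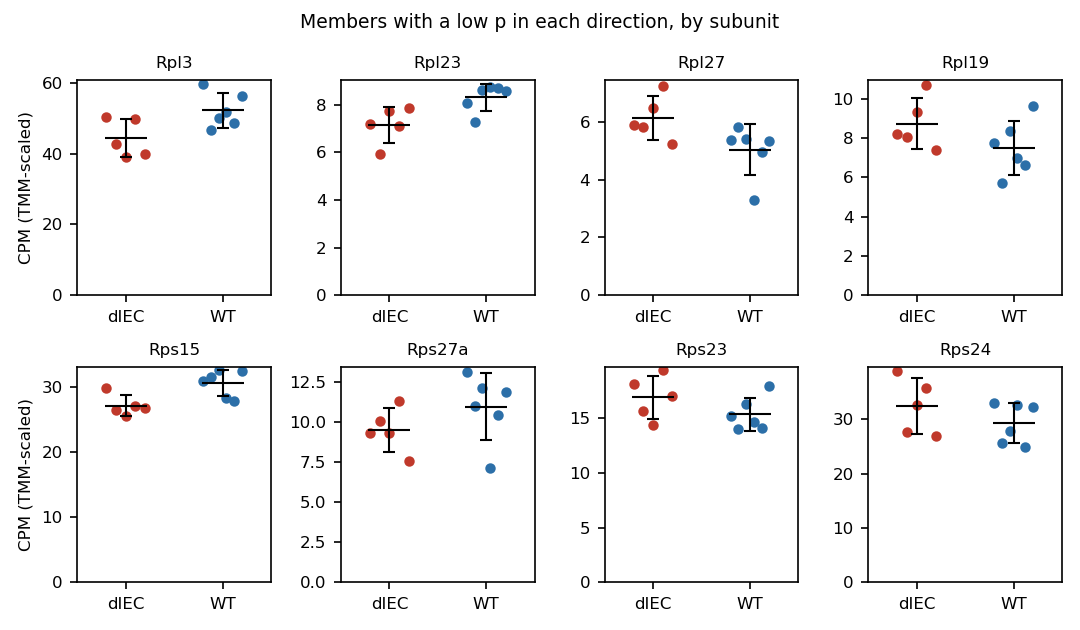
CPM per library of 2 members with a low p in each direction and subunit, large subunit above and small subunit below, dIEC (red) left of WT (blue) in each panel. Horizontal bars with whiskers are the mean ± SD, and the groups overlap in all 8 panels.

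Levels differed far more between members than between genotypes. Mean CPM ran from 2.28 (Rpl36a) to 163.9 (Rpl4) in the large subunit and from 1.25 (Rps27) to 122 (Rps3) in the small one. Per kb of principal transcript, the median member stood at 19.6 CPM per kb in the large and 28.5 CPM per kb in the small subunit. The highest large subunit rows per kb were Rplp1 (143), Rpl41 (139) and Rpl8 (109), and the lowest were Rpl13a (2.96) and Rplp2 (3.72). The highest small subunit rows were Rps12l1 (222), Rps9 (128) and Rps3a2 (126), and the lowest were Rps4l (3.25) and Rps27 (3.62). Rpl13a, known in human cells from an interferon-activated inhibitor of translation, had 2.59, 3.13, 1.62, 3.31 and 4.40 CPM in dIEC mice, against 2.25 to 4.29 CPM with a median of 2.88 in WT mice (log2 fold change -0.052 ± 0.25, adjusted p = 0.956). At the threshold of the rule, as mean CPM of the library total, Rps27 (1.26) and Rps29 (1.88) lay just inside, and Rpl24 (0.411) and Rpl3l (0.120) lay outside. Rps27 was the member that failed the filter on low counts, with 12, 9, 8, 5 and 8 counts in dIEC mice and 6 to 18 counts in WT mice.

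Member rows shared sequence with processed copies, and the copies often held more counts than the member. The first 60 coding bases of 3 protein-coding members are set beside the closest stretch in their processed copies, with capitals for bases that differ from the member. Coordinates are those of the whole gene in GRCm38, and sequences are from the GENCODE vM21 transcripts.
Rps12, chr10:23785183-23787275, minus strand: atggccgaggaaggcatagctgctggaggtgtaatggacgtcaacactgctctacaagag
Rps12l1, chr7:56014016-56014414, plus strand: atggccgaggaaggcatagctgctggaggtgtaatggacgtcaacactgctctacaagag
Rpl6, chr5:121204481-121209241, plus strand: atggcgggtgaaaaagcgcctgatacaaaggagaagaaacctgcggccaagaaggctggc
Rpl6l, chr10:111125851-111126721, plus strand: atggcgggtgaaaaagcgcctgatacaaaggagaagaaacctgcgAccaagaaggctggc
Rps4x, chrX:102184941-102189394, minus strand: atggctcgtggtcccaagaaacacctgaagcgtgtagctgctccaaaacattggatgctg
Rps4l, chr6:148354656-148355598, plus strand: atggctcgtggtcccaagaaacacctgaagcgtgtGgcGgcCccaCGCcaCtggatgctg
Rps12l1 had 0 differences from Rps12 in this stretch, Rpl6l had 1 from Rpl6 and Rps4l had 7 from Rps4x. Rps3a2 and Rps3a3 had 0 differences from Rps3a1, and Rpl32l had 0 from Rpl32.

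The Rps12 row, the protein-coding gene, averaged 3.92 ± 0.641 CPM in dIEC mice and 3.94 ± 0.771 CPM in WT mice, and the Rps12l1 row averaged 89.1 ± 6.93 CPM in dIEC mice and 88.1 ± 9.17 CPM in WT mice. The copy was thus 22.5 times the level of the gene over all libraries, and neither row passed the test between genotypes (log2 fold changes 0.0095 ± 0.18 and 0.016 ± 0.10). Rps3a1 averaged 34.4 ± 1.94 CPM in dIEC mice and 35.5 ± 2.18 CPM in WT mice, beside 97.3 ± 6.66 CPM in dIEC mice and 101 ± 11.3 CPM in WT mice for Rps3a2 and 62.6 ± 3.37 CPM in dIEC mice and 62.6 ± 7.47 CPM in WT mice for Rps3a3. Rpl6 and Rpl6l were near equal, at 46.3 ± 2.12 CPM in dIEC mice and 47.3 ± 5.27 CPM in WT mice for Rpl6 and 52.9 ± 3.68 CPM in dIEC mice and 52.6 ± 6.56 CPM in WT mice for Rpl6l. Rps4l, the most diverged of these copies, averaged 2.82 ± 0.529 CPM in dIEC mice and 3.28 ± 0.561 CPM in WT mice (log2 fold change -0.22 ± 0.19, adjusted p = 0.673), well below Rps4x. Rpl32l averaged 17.2 ± 3.81 CPM in dIEC mice and 15.4 ± 3.36 CPM in WT mice (log2 fold change 0.16 ± 0.17, adjusted p = 0.750), below Rpl32 at 42.0 ± 5.81 CPM in dIEC mice and 40.8 ± 3.96 CPM in WT mice.

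Shared sequence was the rule among the members. Of the 85, 84 shared at least 1 stretch of 50 bases of their principal transcript exactly with a transcript of another gene, and 42 shared over 50% of such windows (median 49.3%). A pseudogene sharing windows had a row of its own for 82 members, and in 62 of these the pseudogene that shared the most windows had a higher mean CPM than the member, in 61 of them in every library. Among the 77 protein-coding members with such a row, the copy was higher in 60, and the median ratio of copy to member was 2.85. Rps29 stood at the extreme, with a mean of 1.84 CPM against 59.5 CPM for its closest pseudogene row, Gm14303. Rpl24, which fell below the threshold of the rule, averaged 0.361 ± 0.137 CPM in dIEC mice and 0.417 ± 0.251 CPM in WT mice, while its closest pseudogene row, Gm9385, averaged 31.3 CPM. At the other end, Rpl4, with 16.5% of windows shared, averaged 165 ± 16.7 CPM in dIEC mice and 163 ± 19.5 CPM in WT mice.

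**Figure D4:**
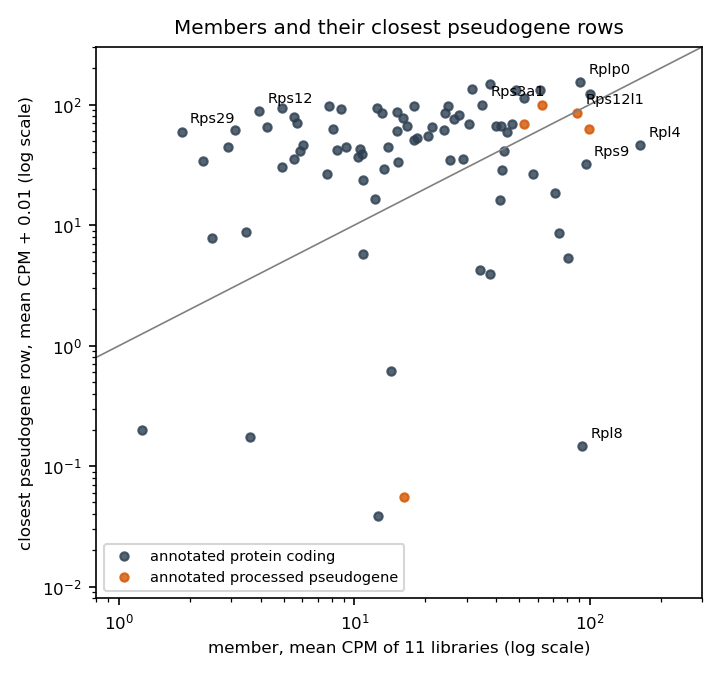
Mean CPM over 11 libraries of each of the 82 members with a pseudogene row (horizontal, log scale) and of the pseudogene row that shares the most 50-base windows with it (vertical, plus 0.01, log scale). Points above the grey line of equality, 62 of 82, are members whose pseudogene row is higher, and orange marks members annotated as processed pseudogenes.

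Members on both sides of that division had values close to 0 between genotypes. The 43 tested members with at most 50% of windows shared had a median log2 fold change of -0.013. Of these, 0 passed an unadjusted p under 0.05, which 10.7% of all genes passed in either direction. The 41 with over 50% shared had a median of -0.010 and 1 such member, Rpl3. The 213 rows marked -ps, which the rule left out, summed to 4859 ± 421 CPM in dIEC mice and 4762 ± 487 CPM in WT mice, more than the members themselves. Of these -ps rows, 134 were tested, with a median log2 fold change of 0.0043 and 0 called. At an unadjusted p under 0.05, 1 was higher, against 4.87% of all genes, and 0 were lower, against 5.79%. The rows Rps12-ps11 to Rps12-ps16, 6 in all, held identical counts in every library, between 30 and 92, and 15 -ps rows in all matched another exactly. The labels do not say how reads with several positions were counted, so the level of any single row, member or copy, is uncertain. The sums over members and over -ps rows share that limit, because a read credited to several rows would enter a sum more than once. Small nucleolar RNA genes lie in introns of 30 members, 58 genes in all, and 28 had rows. Of those rows 1 was tested, Gm26448 inside Rpsa at 11.04 CPM, and the next highest, Snord15a, averaged 0.833 CPM.

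Several members have a paralogue with its own introns and a different protein. Set beside the first 60 coding bases of Rpl22 without gaps, the closest stretch of Rpl22l1 differs at 34 bases, as the 2 sequences show. No gaps were allowed, so any difference in length between the 2 would add to that count.
Rpl22, chr4:152325742-152334071, plus strand: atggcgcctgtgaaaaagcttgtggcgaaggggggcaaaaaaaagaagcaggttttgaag
Rpl22l1, chr3:28805436-28807424, plus strand: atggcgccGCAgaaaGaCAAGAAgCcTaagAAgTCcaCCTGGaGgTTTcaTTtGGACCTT
Rpl22 averaged 34.0 ± 1.93 CPM in dIEC mice and 34.1 ± 3.65 CPM in WT mice and Rpl22l1 averaged 3.39 ± 0.604 CPM in dIEC mice and 3.52 ± 0.653 CPM in WT mice (SD, n = 5 and 6). The log2 ratio of Rpl22l1 to Rpl22 was -3.32 ± 0.23 in dIEC mice and -3.27 ± 0.30 in WT mice, a difference of -0.047 (two-sided exact permutation test over 462 splits, p = 0.788, adjusted over 2 pairs 0.788). For Rpl7l1 to Rpl7 it was -1.57 ± 0.48 in dIEC mice and -1.72 ± 0.20 in WT mice, a difference of 0.15 (exact permutation p = 0.515, adjusted 0.788). Without dIEC replicate 1, in which Rpl7l1 was lowest, that difference was 0.35 (exact permutation over fewer splits, adjusted p = 0.0571). This was the largest difference with 1 library left out. That library was singled out by the same values that were tested, so no conclusion is drawn from leaving it out. Rps27l had 79, 116, 49, 95 and 124 counts in dIEC mice and 84 to 120 in WT mice, far above the counts of Rps27, and averaged 13.3 ± 2.83 CPM in dIEC mice and 11.99 ± 1.31 CPM in WT mice (log2 fold change 0.15 ± 0.14, adjusted p = 0.685). The ratios to Rps27, Rpl3 and Rpl36a were not tested because Rps27, Rpl3l and Rpl36al had too few counts, with 0 to 1 counts of Rpl3l in dIEC mice and 0 to 2 in WT mice, and 1 to 5 counts of Rpl36al in dIEC mice and 1 to 4 in WT mice.

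Ribosomal components whose symbols the rule does not take were also measured. Fau, a fusion of a ubiquitin-like protein with the small subunit protein S30, had 19.1, 19.0, 20.9, 16.5 and 21.0 CPM in dIEC mice, against 13.7 to 18.1 CPM with a median of 15.4 in WT mice, with only dIEC replicate 6 and 2 WT libraries in the range where the groups overlap (log2 fold change 0.30 ± 0.11, adjusted p = 0.427, unadjusted p = 0.0116). Rack1, a signalling scaffold on the small subunit, averaged 154 ± 12 CPM in dIEC mice and 159 ± 13.7 CPM in WT mice (log2 fold change -0.052 ± 0.11, adjusted p = 0.891). Neither passed the threshold.

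Genes that build, regulate or accompany the ribosome were described from lists. Their counts are at an unadjusted p under 0.05, which 4.87% of all genes passed as higher and 5.79% as lower. Of 53 ribosome biogenesis factors, 52 were tested, and 0 were higher and 1 lower (median log2 fold change -0.0090). The lower one was Nop10, a component of box H/ACA ribonucleoproteins, with 3.69 ± 1.58 CPM in dIEC mice and 5.56 ± 1.10 CPM in WT mice (log2 fold change -0.60 ± 0.24, adjusted p = 0.430). Of 16 genes of RNA polymerase I and its promoter factors, 15 were tested with 0 in either direction (median -0.012). All 20 translation factors of the terminal oligopyrimidine class were tested with 0 in either direction (median -0.053). Of 28 other initiation factors, 1 was higher and 0 lower, Eif1a, which helps scan for the start codon, with 27.9 ± 3.48 CPM in dIEC mice and 20.5 ± 4.01 CPM in WT mice (log2 fold change 0.45 ± 0.13, adjusted p = 0.427). Of 25 genes of mTORC1 and Myc control, 23 were tested with 0 in either direction (median 0.0081). Of 15 targets of p53 and nucleolar stress, 14 were tested and 2 were lower, Phlda3 and Plk2. Plk2, a stress-induced kinase, averaged 3.48 ± 0.896 CPM in dIEC mice and 5.53 ± 1.94 CPM in WT mice (log2 fold change -0.69 ± 0.25, adjusted p = 0.427). Of 10 genes with Rps6k symbols, which the rule left out, 8 were tested and 1, Rps6ka4, was higher. It had 14.2 ± 1.90 CPM in dIEC mice and 11.1 ± 2.23 CPM in WT mice (log2 fold change 0.37 ± 0.15, adjusted p = 0.430). The 77 genes of mitochondrial ribosomal proteins, a list added after their values were seen, gave 0 higher and 4 lower, Mrpl36, Mrpl42, Mrps10 and Mrps23 (median -0.0026). The share that was lower was close to that of all genes, and the share that was higher was below that of all genes. None of these genes was called at an adjusted p under 0.05.

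In several libraries, most members lay on the same side of their own mean. WT replicates 2 and 12 each held the highest value of 19 members, and the lowest of 0. The lowest value of 20 members fell in dIEC replicate 5, of 18 in WT replicate 9 and of 14 in WT replicate 4. In dIEC replicate 6, 69 of 85 members lay above their own mean over the 11 libraries, and in WT replicate 4, 18 did. The median deviation of the members from their own mean, on a log2 scale of CPM + 0.5, ran from -0.085 to 0.107 in dIEC mice and from -0.095 to 0.137 in WT mice. High and low libraries thus occurred in both genotypes. The same counts over all genes are not given, so the pattern is not shown to be particular to the members. The -ps rows that the rule left out had their highest sum in dIEC replicate 1 (5432 CPM), followed by WT replicates 12 and 2 (5348 and 5239 CPM). Their lowest sums were in WT replicates 4 and 9 (4223 and 4287 CPM). A few low-count members deviated on their own: Rps29 was at 0.576 CPM in dIEC replicate 1 and between 1.90 and 2.61 CPM in the other dIEC libraries, and the biological coefficient of variation was highest for Rps28 (0.281), against a median of 0.137 over the members and 0.162 over all genes.

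**Figure D5:**
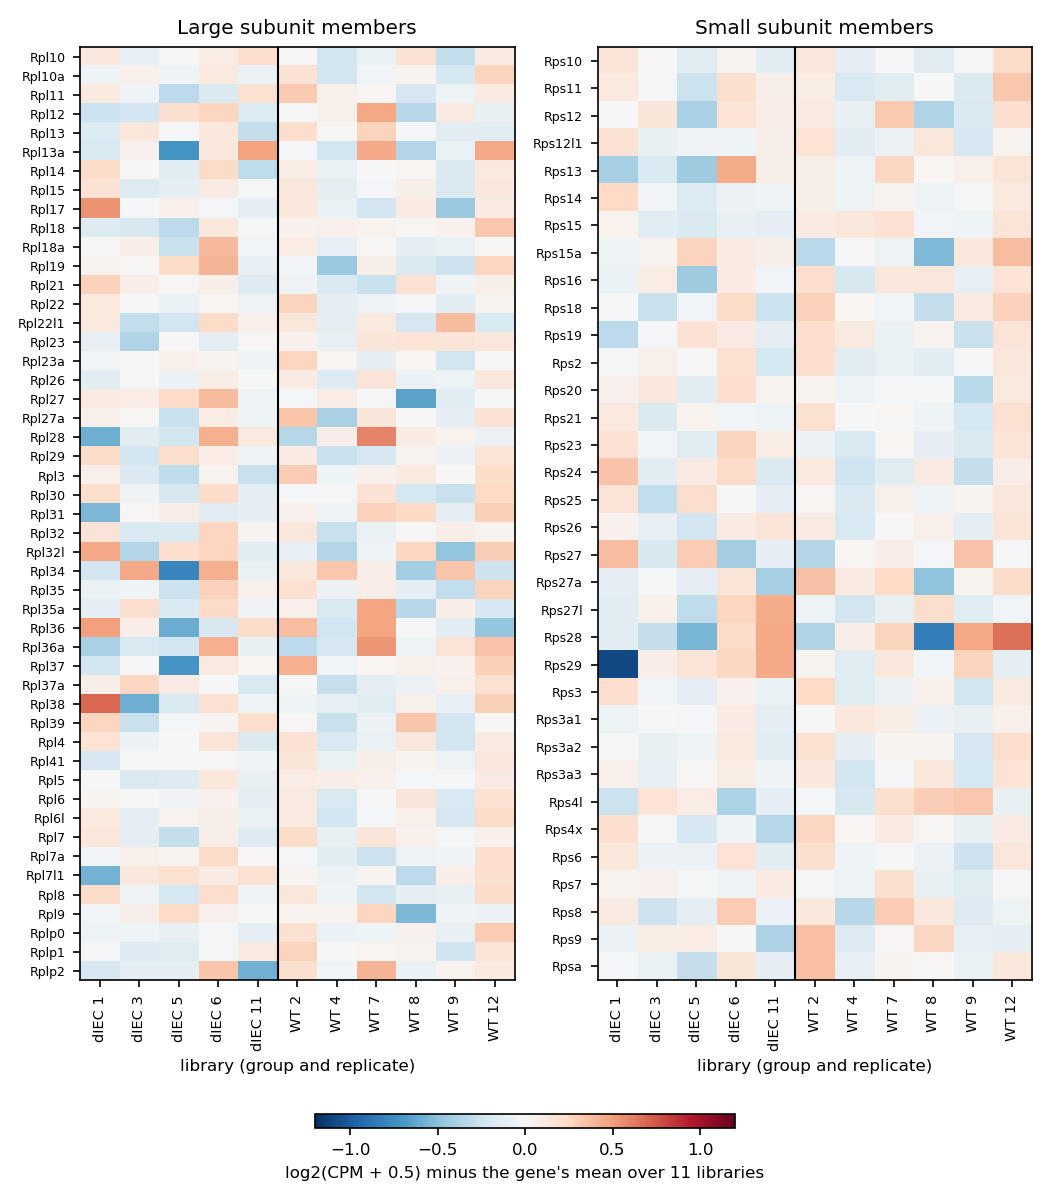
Deviation of 83 of the 85 members in each library from its own mean over the 11 libraries, on the scale of log2(CPM + 0.5), red above and blue below, dIEC libraries left of the black line and WT libraries right of it. Columns that are mostly one colour, such as dIEC 6, WT 2 and WT 12 (red) and dIEC 5, WT 4 and WT 9 (blue), occur in both genotypes, and single dark cells belong to low-count members such as Rps29.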

How the data were processed

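Counts per gene from 11 RNA-seq libraries of whole distal ileum were used as deposited by the authors, as raw whole-number counts with no normalization. Reads were aligned with TopHat2 to mm10, per the submitters' processing notes, and the directional NEBNext Ultra kit was used, per the labels' protocols. The counter, its strand setting and its handling of multi-position reads are not stated in these sources. Of 31169 rows, 1 named no gene and was left out (at most 0.0147% of a library's counts). GENCODE vM21, which holds 99.2% of the symbols, supplied positions and gene types.

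Genes were kept with filterByExpr, scaled with TMM and tested with edgeR 4.0.16 (R 4.3.3; robust quasi-likelihood F test, Benjamini-Hochberg, threshold 0.05), dIEC against WT. The fit was tested on simulated data. A ± after a log2 fold change is its standard error (its size over the square root of F), and after CPM it is the SD (n = 5 dIEC, n = 6 WT). The members and lists were chosen with earlier results of these data known. Named members were, in each subunit, up to 3 with the lowest p in each direction and the 3 highest and 2 lowest in CPM per kb, with suffixed copies, members at the threshold, members with set roles and members with an outlying library. Others, such as Rpl4 and Rps12, were named after their values were seen, and some genes are not reported here. Each library was taken as 1 mouse, and p-values measure the spread between libraries. Alternatives were RLE factors, library size only, no filter, DESeq2 1.42.0, limma-voom (limma 3.58.1) and leaving out each library. A further one left out the ribosomal RNA rows together with Gm42418 and Lars2.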

Additional observations from a re-analysis of the deposited data

Results flagged for a closer look

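Of 176 groups of libraries (the 85 members, the 2 subunit sums and their ratio, in each genotype), 4 held a library far from the others by Dixon's ratio of gap to range, where chance gives about 1 in 20. Rpl17 was highest in dIEC replicate 1, at 25.8 CPM, with the other dIEC libraries at 16.2 to 18.5 CPM. Rpl7l1 was lowest in that same library, at 9.35 CPM, with the others at 15.1 to 16.1 CPM. Rpl18 was highest in WT replicate 12, at 16.7 CPM, with the other WT libraries at 13.4 to 13.8 CPM. Rpl27 was lowest in WT replicate 8, at 3.31 CPM, with the others at 4.95 to 5.81 CPM.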

How the results depend on the processing

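In all 17 settings 0 members were called at an adjusted p under 0.05. The count of members lower at an unadjusted p under 0.05, 1 as reported, was 4 of 84 with library size only, where 13.8% of all genes were lower, 0 with no filter, where 4.60% were, and 0 to 3 with 1 library left out, where 3.58 to 9.82% were. With library size only, the median log2 fold change was -0.22 in the large and -0.25 in the small subunit, where that of all genes was -0.22; less that shift, the subunits stood at 0.0049 and -0.025. Of 578 recomputed fold changes of 34 named members, 567 kept their direction or moved by less than their standard error, and 11, all with library size only, turned below 0 by more than that: Rpl10 -0.095, Rpl17 -0.050, Rpl19 -0.012, Rpl7l1 -0.18, Rpl8 -0.17, Rps12l1 -0.19, Rps23 -0.082, Rps24 -0.087, Rps27l -0.037, Rps3 -0.20 and Rps6 -0.22. Without WT replicate 8, 319 genes in all were called, against 1 with it, and 0 of them were members. The difference in the log2 ratio of Rpl22l1 to Rpl22 ran from -0.11 to 0.057 with 1 library left out, and that of Rpl7l1 to Rpl7 from 0.047 to 0.35. Low counts limit Rps27 (not tested), Rps29 and Rpl36a most. No paired analysis was possible because the labels give no pairing of dIEC with WT mice.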
